A study of Homo sapiens with 6 samples.

Results

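Protocadherins were taken as the genes of the deposited count table whose symbol is PCDH followed by a number, with or without cluster letters. This rule found 69 of 57396 genes. Of these, 56 lie in 3 neighbouring clusters on chromosome 5, 16 in the alpha, 18 in the beta and 22 in the gamma cluster, over 727 kb. The remaining 13 lie elsewhere, and these include PCDH1 and PCDH12 on chromosome 5 beyond the clusters. The table was made by RNA sequencing of PC-3 cells, an established line from a metastasis of a prostate carcinoma. In the SAM group, 3 libraries came from cells given 160 µM S-adenosylmethionine, the cell's methyl donor, for 5 d. In the control group, 3 libraries came from cells given PBS as vehicle for 5 d. The question of the comparison was which transcripts changed under the added methyl donor. Both groups are 1 cell line, and nothing in the labels says that the libraries of a group came from separate cultures, so each p-value reflects library-to-library spread that may be technical only.

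Protocadherins are the largest group of cadherin-type membrane proteins, with extracellular cadherin repeats that bind like repeats on a neighbouring cell. The clustered members are best known from neurons, where each cell uses its own few of them, and where the chosen promoters are set by DNA methylation and by the looping factor CTCF. Each alpha and gamma gene has a variable first exon of its own, which is spliced to constant exons shared by the whole cluster, whereas each beta gene is a single coding exon without a constant part. The members outside the clusters are separate genes with their own cytoplasmic tails. Several protocadherins are known to be silenced by promoter methylation in carcinomas.

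The libraries held between 9379258 (control 1) and 28995160 (SAM 1) gene counts. At these depths 3 counts corresponded to between 0.103 and 0.322 CPM (counts scaled to library size with TMM factors), the limit that a count of 0 allows; this covers counting error only. Epithelial keratins KRT8 and KRT18 and the surface proteins CD44 and EGFR were high in every library, VIM lay between 9.22 and 15.0 CPM, and KLK3, which encodes prostate-specific antigen, was at 0 in all 6. Markers of other cell types were few. The neuronal list summed to between 13.7 and 15.1 CPM in the controls and between 10.1 and 11.3 CPM with SAM. This sum came mostly from MAP2 and TUBB3, with DCX at 0. The fibroblast list rested on COL1A1, with LUM and DCN at 0, and the endothelial and leukocyte lists stayed at or below 1.22 CPM in every library. The part of these markers in the results was not tested. Control 1 and SAM 2 deviated from their group means in the same direction across genes (correlation of the deviations 0.59). SAM 3 stood apart by GC content, with a slope of 0.12 log2 units per 10 points of GC, against between -0.06 and -0.00051 in the other libraries, and by length, with a slope of -0.11 log2 units per doubling of transcript length. For the class medians, the class sums and some members, values without SAM 3, and in places without SAM 2, are also given.

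PCDH1 held most of the protocadherin transcripts, and it fell with SAM. PCDH1 (ENSG00000156453, GRCh38 chromosome 5, positions 141853111 to 141879246, minus strand) encodes protocadherin 1, a cell adhesion protein of epithelia that is known from the airway. It lies 340 kb beyond the last gamma gene and shares no exonic bases with a listed gene. The stretch below shows the 250 bases before its first listed RefSeq start, because PCDH1 was the tested member with the largest change. Where the counted transcripts begin was not tested. RefSeq (GRCh38.p14) places this stretch at chr5:141869628-141869877 on the minus strand. It is printed 5′ to 3′ along the gene, with capitals for the letters CGCT on either strand, here once as AGCG. It holds 6 CpG sites, and it lies within the span that the deposited table gives for PCDH1 but touches no exon of GENCODE release 44.
PCDH1: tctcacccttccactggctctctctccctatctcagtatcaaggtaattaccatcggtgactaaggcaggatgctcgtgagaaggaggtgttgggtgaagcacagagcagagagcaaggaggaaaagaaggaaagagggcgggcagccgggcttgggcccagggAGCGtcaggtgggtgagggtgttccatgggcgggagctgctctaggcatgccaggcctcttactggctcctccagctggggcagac

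The counts of PCDH1 in control 1 to 3 were 1604, 3833 and 3546, and those in SAM 1 to 3 were 2143, 1126 and 1538. Scaled to library size, these were 172, 174 and 174 CPM in the controls and 73.8, 95.2 and 102 CPM with SAM. The controls were nearly equal and every SAM library lay far below them. The mean level with SAM was 52.1% of the control mean, and the log2 fold change was -0.94 ± 0.12 (SE, n = 3 against 3, edgeR adjusted p = 0.00359). PCDH1 was called in 15 of 15 alternatives, at log2 fold changes between -1.03 and -0.82. In bulk RNA, fewer cells that carry the transcript and less transcript per cell cannot be told apart. PCDH1 took 74.0, 74.7 and 75.6% of all protocadherin counts in control 1 to 3. With SAM its share was 59.1, 62.9 and 73.0% in SAM 1 to 3. All SAM shares were below all control shares, although SAM 3 came close to the lowest control.

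**Figure D1:**
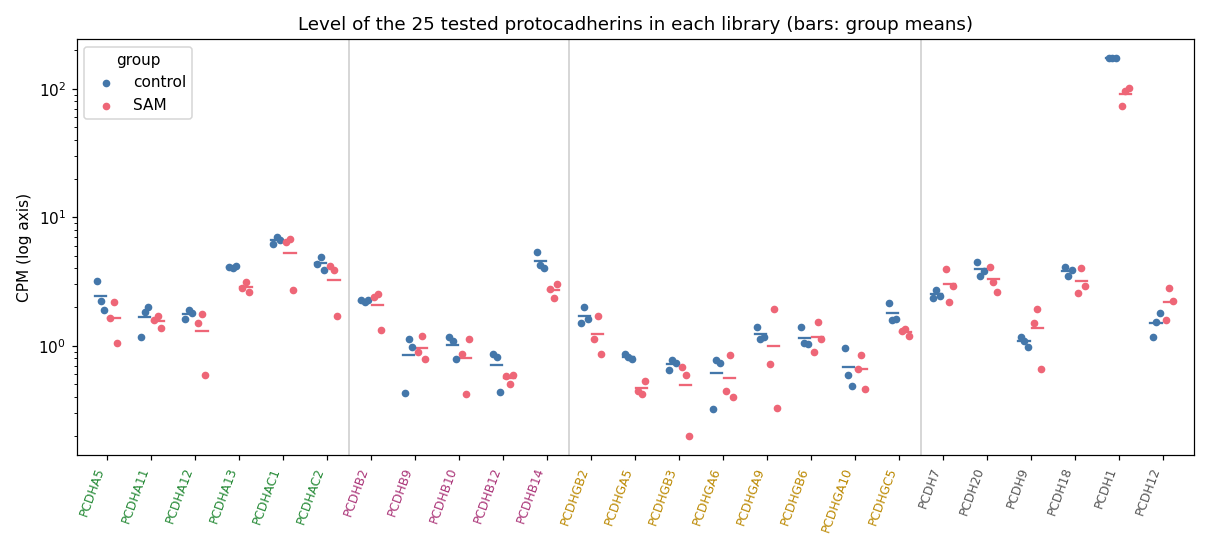
Level in CPM (log axis) of the 25 protocadherins with enough counts for the test, 1 point per library and a short bar for each group mean. Name colours and vertical lines separate the alpha, beta and gamma clusters and the members outside them. PCDH1 sits at 172 to 174 CPM in the controls and 73.8 to 102 CPM with SAM, and all other members lie under 10 CPM.

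Of the 69 protocadherins, 25 passed the filter on low counts: 6 alpha, 5 beta, 8 gamma and 6 outside the clusters. The other 44 did not pass it, and 4 of these (1 alpha, 1 beta and 2 outside) had no count in any library. Among the 25, edgeR called 2 lower with SAM, PCDH1 and PCDHB14. Over all 15312 tested genes, 5.24% were called lower, 5.19% higher and 10.4% either way. With library totals only, the split over all genes was 961 lower and 608 higher, and the same count of 2 protocadherins was called lower. No protocadherin was called higher by edgeR, DESeq2 or limma voom. At an unadjusted p under 0.05 there were 4 of 25 protocadherins, all lower with SAM, against 30.6% of all tested genes either way. The log2 fold change was below 0 for 19 of the 25, against 50.9% of all tested genes, and its median was -0.33, against -0.01 over all tested genes. All SAM libraries lay below all controls for 5 of the 25, against 18.8% of all tested genes. All SAM libraries lay above all controls for 0 of them, against 17.9% of all tested genes. In either direction the groups did not overlap for 36.7% of all tested genes, so protocadherins without overlap were near the background downward and under it in all.

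Set beside the other members, most of the clustered ones lay below 0. Of the 19 tested clustered members, 16 (84.2%) had a log2 fold change below 0, with a median of -0.40. Of the 6 tested members outside the clusters, 3 were below 0, with a median of 0.05. By cluster the median was -0.43 for alpha (6 of 6 below 0), -0.25 for beta (4 of 5) and -0.42 for gamma (6 of 8). A single clustered member was called, PCDHB14. Among the 4114 tested genes in the same range of mean level, 0.586 to 5.96 CPM, 7.07% were called either way, 54.0% had a log2 fold change below 0, and the median was -0.05. These counts and medians were not tested, since members of a cluster share exons and a locus.

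In the alpha and gamma clusters the low values came often from SAM 3. It was the lowest of the 6 libraries for 5 of 6 alpha and 5 of 8 gamma members, but for 1 of 5 beta members and 2 of 6 members outside the clusters. Over all tested genes it was the lowest for 29.3%. Over the same members, without SAM 3 the median moved from -0.43 to -0.13 for alpha and from -0.42 to -0.16 for gamma, while for beta it was -0.25 with and -0.28 without. The clustered median went from -0.40 to -0.15, and that of the members outside the clusters from 0.05 to 0.15. With the trend on GC content and transcript length removed from each library, the medians were -0.36, -0.21 and -0.37 for alpha, beta and gamma. The median GC content was 48.2% for alpha, 46.4% for beta, 54.8% for gamma and 43.6% outside the clusters, against 48.1% over all tested genes. The part of GC content and length in the values of SAM 3 was not tested.

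**Figure D2:**
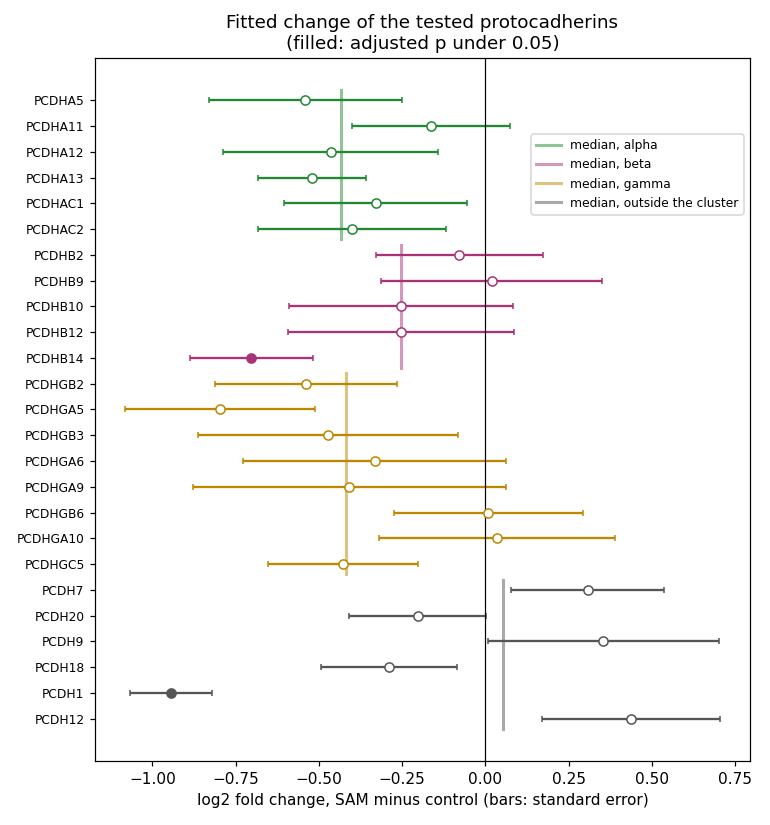
Log2 fold change of SAM against control for the 25 tested protocadherins, with the standard error as bars. Filled points passed an adjusted p of 0.05 and coloured vertical lines mark the median of each class. PCDH1 at -0.94 and PCDHB14 at -0.70 are filled, the class medians of the clusters lie between -0.43 and -0.25, and that of the members outside the clusters is 0.05.

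The promoters of the clustered genes are known for a conserved element with the core CGCT. The sequences below show the letters of this core beside the genes that were read out. RefSeq promoters were matched by symbol for 56 members, 45 of them clustered and 22 of them tested. Only the first listed start of each member was used. In the 250 bases before the start, CGCT was present on either strand in 43 of 45 clustered promoters (95.6%), in 10 of 11 promoters outside the clusters, and in 64.8% of all 35116 promoters. Longer forms that contain this core were chosen after looking at these sequences. CGCTGT was present in 7 of 13 alpha, 1 of 13 beta and 16 of 19 gamma promoters, and in 8.83% of all promoters. CGCTGC was present in 0 of 13 alpha, 10 of 13 beta and 4 of 19 gamma promoters, and in 19.4% of all promoters. In these 250 bases the clustered promoters held a median of 5 CpG sites, against 10 outside the clusters and 11 over all promoters. Bases after the start were not counted, and the set of all promoters was not limited to the first listed start.

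For each of the 42 clustered promoters with the core on the gene's strand, the best-matching window of 26 bases was taken by an alignment without gaps. The windows of 10 of the 17 tested members with one are printed 5′ to 3′ from RefSeq (GRCh38.p14, plus strand), with the core in capitals. PCDHB14's window lies at chr5:141223267-141223292, PCDHGA5's at chr5:141364111-141364136 and PCDHAC1's at chr5:140926224-140926249. The windows of PCDHAC2, PCDHB10 and PCDHB14 lie within the spans that the deposited table gives for their genes.
PCDHA5: tccacatgatgtCGCTggacaccgga
PCDHA12: gtcacatgatgtCGCTctacactcag
PCDHAC1: agaaggtgtggtCGCTcacgttcacc
PCDHAC2: gcagtccgggttCGCTgtccgccact
PCDHB2: gacgcggggtggCGCTgcagccttag
PCDHB10: gccacacggtggCGCTgcaggctaaa
PCDHB14: gacacatggtggCGCTacaggataag
PCDHGB2: acctctgagcgtCGCTgttggtcaaa
PCDHGA5: gactctgagtgtCGCTgttgaccaaa
PCDHGA9: gactctgagcgcCGCTgttgatcaac

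The alpha windows for PCDHA5 and PCDHA12 share the run before the core, and the beta windows end in a G-rich stretch before it. The 3 gamma windows printed here continue with GT after the core. The window of PCDHAC2 also has GT there but lacks the shared alpha run. It scored 9.10 against the alignment, the lowest of the tested windows apart from that of PCDHAC1. Of the tested windows not printed, that of PCDHA11 lacks the shared alpha run and that of PCDHGB3 has CT after the core. Those of PCDHGA6, PCDHGB6 and PCDHGA10 continue with GT. PCDHAC1 held the core letters in other surroundings, and its window scored below 0 against the alignment. PCDHB14 is a beta form in which the base after the core is an A. The core began 64 bases before the start of PCDHB14 and 39 bases before that of PCDHGA5. A match of letters is a description only, and no binding or methylation was measured here.

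PCDHB14 was the only clustered member called. PCDHB14 (ENSG00000120327, chromosome 5, positions 141222932 to 141227759, plus strand) is a beta protocadherin, with a single coding exon and no constant part. Its CPM was 5.36, 4.27 and 4.06 in the controls and 2.79, 2.37 and 3.04 with SAM. The groups did not overlap, and the mean with SAM was 59.8% of the control mean. The log2 fold change was -0.70 ± 0.18 (SE, edgeR adjusted p = 0.0402). This call was close to the threshold: it was kept in 8 of 15 alternatives and lost without control 1 (edgeR adjusted p = 0.149), control 2 (0.110), control 3 (0.121), SAM 1 (0.121) or SAM 2 (0.0554), without both control 1 and SAM 2 (0.158), and with the replicate number as a block (0.0652). The log2 fold change stayed between -0.79 and -0.52 throughout. Of the 50-base words in its transcripts, 11.1% also occur in transcripts of another protocadherin, so some reads may not be tied to this gene alone. The 250 bases before its RefSeq start, at chr5:141223093-141223342 on the plus strand, hold 7 CpG sites. They lie within the span that the deposited table gives for this gene. The core CGCT, in capitals, occurs in them at 2 places, of which the first is in the window above.
PCDHB14: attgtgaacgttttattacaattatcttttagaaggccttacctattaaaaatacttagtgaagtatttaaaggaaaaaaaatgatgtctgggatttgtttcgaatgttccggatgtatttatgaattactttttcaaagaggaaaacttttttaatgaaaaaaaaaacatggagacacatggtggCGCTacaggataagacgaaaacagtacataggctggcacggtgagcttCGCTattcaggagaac

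None of the other 4 tested beta members was called. PCDHB2 had 2.25, 2.18 and 2.25 CPM in the controls and 2.41, 2.54 and 1.32 CPM in SAM 1 to 3. Its 2 higher SAM libraries exceeded every control and SAM 3 lay below them, and the log2 fold change was -0.08 ± 0.25 (edgeR adjusted p = 0.858), which became 0.15 without SAM 3. PCDHB10 had 1.18, 1.09 and 0.783 CPM in the controls and 0.861, 0.423 and 1.12 CPM with SAM. The groups overlapped (log2 fold change -0.25 ± 0.34, edgeR adjusted p = 0.637). Its log2 fold change was -0.04 without SAM 2 and -0.48 without SAM 3. PCDHB12 and PCDHB9 had log2 fold changes of -0.25 ± 0.34 and 0.02 ± 0.33. As a class, the 18 beta genes summed to 12.9, 11.2 and 10.1 CPM in the controls and 9.23, 8.96 and 7.99 CPM with SAM. All SAM sums were below all control sums, and the mean with SAM was 76.6% of the control mean, or 79.9% without SAM 3. Beta transcripts share a median of 13.9% of their 50-base words with another member, up to 44.4% for PCDHB8, so the split between beta genes is uncertain.

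In the alpha cluster the highest members were the last ones in chromosomal order. PCDHAC1 and PCDHAC2 are the C-type alpha genes, which in neurons are known to be used more constantly than the others. PCDHAC1 had 6.22, 7.04 and 6.66 CPM in the controls and 6.37, 6.77 and 2.71 CPM in SAM 1 to 3. SAM 1 and SAM 2 lay within the control range and SAM 3 alone lay below it (log2 fold change -0.33 ± 0.28, edgeR adjusted p = 0.440). Without SAM 3 the log2 fold change was -0.03. PCDHAC2 showed the same layout, with 4.29, 4.95 and 3.87 CPM in the controls and 4.17, 3.89 and 1.72 CPM with SAM (log2 fold change -0.40 ± 0.28, edgeR adjusted p = 0.358, and -0.11 without SAM 3). The promoter of PCDHAC1 differs from the printed beta one in composition, since its 250 bases before the start hold 18 CpG sites at 63.2% GC, against 33.6% GC for PCDHB14.

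PCDHA13, the last of the ordinary alpha genes, had the smallest standard error of the tested alpha genes. It had 4.08, 3.996 and 4.21 CPM in the controls and 2.82, 3.13 and 2.64 CPM with SAM. The groups did not overlap, but the change missed the threshold (log2 fold change -0.52 ± 0.16, unadjusted p = 0.00943, edgeR adjusted p = 0.0675), and its log2 fold change lay between -0.57 and -0.44 in 15 alternatives, with no call. PCDHA5, PCDHA12 and PCDHA11 had log2 fold changes of -0.54 ± 0.29, -0.47 ± 0.32 and -0.16 ± 0.24, and the groups overlapped for each. Without SAM 3 these were -0.33, -0.15 and -0.09. The 16 alpha genes summed to 22.5, 24.2 and 23.1 CPM in the controls and 19.5, 21.1 and 11.4 CPM in SAM 1 to 3. All SAM sums lay below the controls, with SAM 3 far below the other two. The mean with SAM was 74.6% of the control mean, or 87.5% without SAM 3. Alpha genes share constant exons, 2869 bases in 10 of 16, and the assignment of reads on shared bases is not stated in the labels or the study's methods, so the levels of single alpha genes mainly reflect their variable exons where such reads were left out.

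In the gamma cluster no member was called. PCDHGB2 was the highest per kilobase, with 1.502, 1.998 and 1.62 CPM in the controls and 1.14, 1.69 and 0.858 CPM in SAM 1 to 3. SAM 2 lay within the control range (log2 fold change -0.54 ± 0.27, edgeR adjusted p = 0.209). PCDHGC5, a C-type gamma gene, had 2.15, 1.59 and 1.62 CPM in the controls and 1.31, 1.35 and 1.19 CPM with SAM. Its groups did not overlap, yet the change missed the threshold (log2 fold change -0.43 ± 0.22, edgeR adjusted p = 0.225). PCDHGA9 had 1.39, 1.14 and 1.18 CPM in the controls and 0.723, 1.95 and 0.330 CPM with SAM. The SAM libraries lay on both sides of the controls (log2 fold change -0.41 ± 0.47, edgeR adjusted p = 0.579). Its log2 fold change was -1.06 without SAM 2 (edgeR adjusted p = 0.0617) and -0.03 without SAM 3.

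PCDHGA5 had the lowest fitted log2 fold change among the tested clustered members and was named after its values were seen. It had 0.858, 0.817 and 0.783 CPM in the controls and 0.448, 0.423 and 0.528 CPM with SAM. These levels rest on 68 counts over the 6 libraries. The groups did not overlap (log2 fold change -0.80 ± 0.29, unadjusted p = 0.0231, edgeR adjusted p = 0.108). PCDHGB3, PCDHGA6, PCDHGB6 and PCDHGA10 had log2 fold changes of -0.47 ± 0.39, -0.33 ± 0.40, 0.01 ± 0.28 and 0.03 ± 0.35, with overlapping groups. Without SAM 3, PCDHGB3 was at -0.15 and PCDHGA6 at -0.17, and PCDHGB2 above at -0.36. The 22 gamma genes summed to 11.5, 10.7 and 9.89 CPM in the controls and 7.79, 11.1 and 6.40 CPM in SAM 1 to 3. SAM 2 lay within the control range, so the groups overlapped, and the mean with SAM was 78.8% of the control mean, or 88.2% without SAM 3. Here too constant exons are shared, 2177 bases in 19 of 22 genes.

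**Figure D3:**
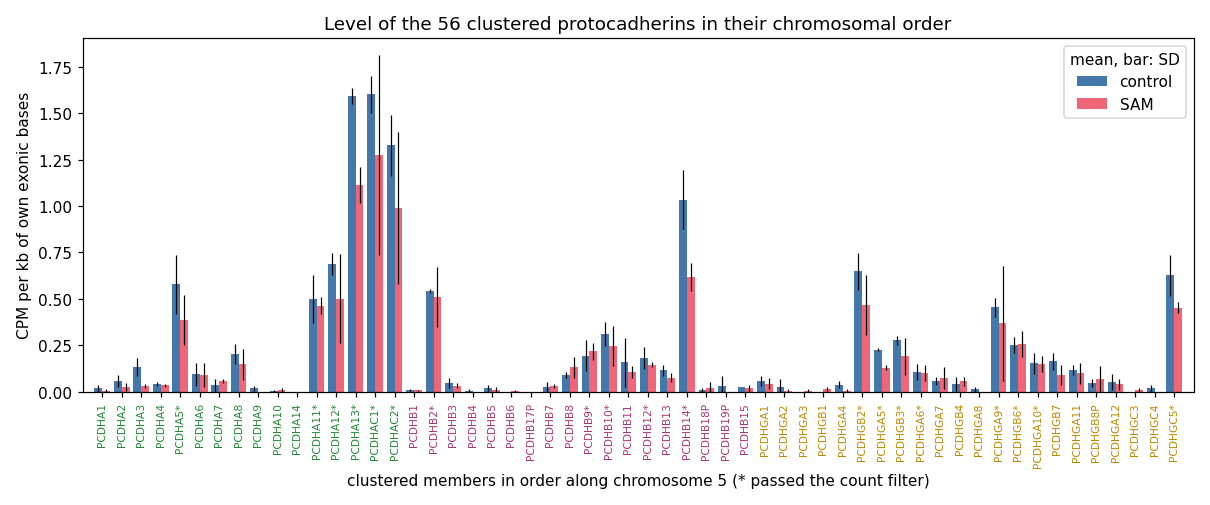
Mean CPM per kb of own exonic bases for the 56 clustered protocadherins in their order along chromosome 5, with control and SAM bars and the SD over 3 libraries (cut at 0). Stars mark the members that passed the count filter, and PCDHA14 has no bases of its own and is drawn at 0. The end of the alpha cluster stands out, with PCDHAC1 at 1.60, PCDHA13 at 1.59 and PCDHAC2 at 1.33 CPM per kb in the controls, followed by PCDHB14 at 1.03.

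Levels between genes were compared per kilobase of exonic bases that no other listed gene covers. PCDH1 had 29.2 ± 0.178 CPM per kb in the controls and 15.2 ± 2.45 with SAM (SD, n = 3 each), and over all libraries its level was 15.5 times that of the next member. PCDHAC1 followed with 1.60 ± 0.0986 and 1.27 ± 0.540, then PCDHA13 with 1.59 ± 0.0423 and 1.11 ± 0.0959, and PCDHAC2 with 1.33 ± 0.165 and 0.989 ± 0.408 CPM per kb. PCDHB14 had 1.03 ± 0.158 and 0.618 ± 0.0766 CPM per kb, and PCDHGB2, the highest gamma gene, 0.647 ± 0.0986 and 0.466 ± 0.161. The lowest tested member was PCDH9, with 0.0352 ± 0.00326 and 0.0446 ± 0.0212 CPM per kb. In the order of the 25, 23 of 24 neighbouring pairs overlapped in their library values, and PCDH1 alone stood clear of the next. With all exonic bases as the length, PCDHB14 moved from the fifth to the third place and PCDHAC1 stayed second.

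Outside the clusters, PCDH1 was the only member called. PCDH20 had 4.51, 3.50 and 3.82 CPM in the controls and 4.10, 3.13 and 2.64 CPM with SAM. The groups overlapped (log2 fold change -0.20 ± 0.21, edgeR adjusted p = 0.526). PCDH18, a delta protocadherin, had 4.08, 3.50 and 3.87 CPM in the controls and 2.58, 4.06 and 2.90 CPM in SAM 1 to 3, where SAM 2 reached the control range (log2 fold change -0.29 ± 0.20, edgeR adjusted p = 0.361). PCDH12, an endothelial protocadherin that is the neighbour of PCDH1, had a log2 fold change of 0.44 ± 0.27 (edgeR adjusted p = 0.293). PCDH7 and PCDH9, both delta protocadherins best known from the brain, had 0.31 ± 0.23 and 0.35 ± 0.35, and their groups overlapped. These were 0.36 and 0.66 without SAM 3, and 0.47 and 0.13 without SAM 2. Together the 12 members outside the clusters other than PCDH1 summed to 13.6, 12.8 and 13.1 CPM in the controls and 14.6, 14.9 and 11.9 CPM with SAM. The controls lay between the SAM libraries, and the mean with SAM was 105% of the control mean, or 112% without SAM 3.

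**Figure D4:**
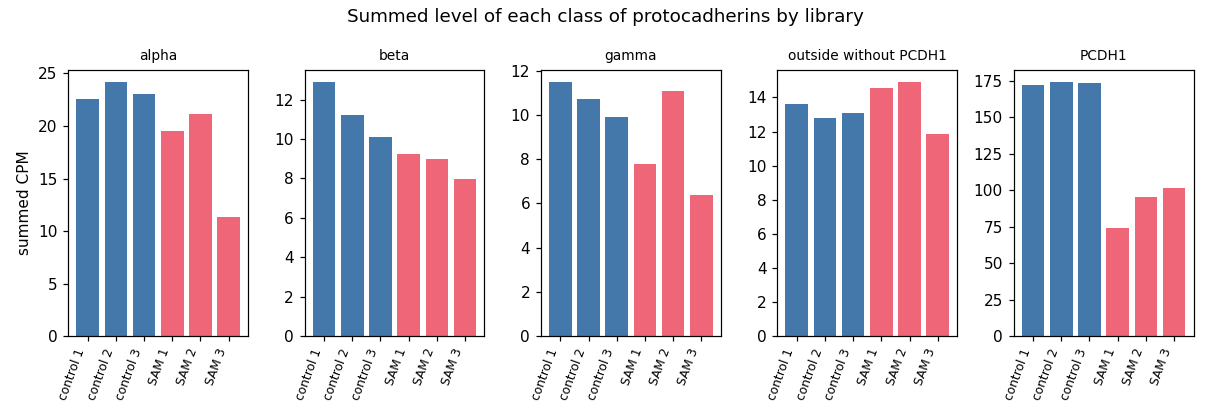
Summed CPM in each of the 6 libraries for the 3 clusters, for the 12 members outside them other than PCDH1, and for PCDH1, with control bars in blue and SAM bars in red, each panel on its own axis from 0. The alpha sum of SAM 3 is 11.4 CPM, against 19.5 and 21.1 CPM in SAM 1 and SAM 2, while the beta sums lie between 7.99 and 9.23 CPM in all SAM libraries.

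All 69 protocadherins together summed to 233, 233 and 230 CPM in the controls and 125, 151 and 139 CPM in SAM 1 to 3. The mean with SAM was 59.8% of the control mean, and most of this difference was PCDH1, whose means were 173 and 90.2 CPM. These sums were described and not tested.

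Among the 44 members that did not pass the filter, 9 had at least 30 counts in all libraries together. These were PCDHA3, PCDHA4, PCDHA6, PCDHA8, PCDHB8, PCDHB11, PCDHB13, PCDHGB7 and PCDHGA11, with summed counts between 31 and 51, while the tested members began at 64. PCDHA3 had 7, 8 and 10 counts in the controls and 2 counts in each SAM library. Every SAM library lay below every control, both as counts and as CPM (0.363 to 0.751 against 0.0689 to 0.169 CPM). It was called with no filter on low counts (log2 fold change -2.10 ± 0.62, edgeR adjusted p = 0.0128), and it did not pass the filter in the other alternatives. PCDHB11 showed the limit of such counts, with 12, 10 and 5 counts in the controls and 10, 7 and 6 with SAM. The remaining 35 of these members had under 30 counts each, 5 pseudogenes of the clusters included.

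Genes known to act with protocadherins were read from lists drawn up from textbook knowledge. Of 29 tested chromatin regulators of the clusters, which include the cohesin subunits, DNA methyltransferases and their partners, 1 was called higher and 1 lower, under the 10.4% of all tested genes called either way (median log2 fold change -0.10). DNMT3A, a de novo DNA methyltransferase, fell by 0.41 ± 0.09 on the log2 scale (edgeR adjusted p = 0.0222). TRIM28, a corepressor that recruits histone methylation, rose by 0.36 ± 0.10 (edgeR adjusted p = 0.0451). Of 18 tested cytoplasmic partners, 0 were called higher and 2 lower (median -0.01), against 10.4% of all tested genes either way and 5.24% lower. The 2 called partners were FYN, a Src-family kinase, at -0.45 ± 0.11 (edgeR adjusted p = 0.0281), and CYFIP2, a subunit of the WAVE complex that binds protocadherin tails, at -0.49 ± 0.12 (edgeR adjusted p = 0.0351). Of only 8 tested genes of membrane cleavage, the presenilin PSEN2 was called higher (0.32 ± 0.08, edgeR adjusted p = 0.0376) and the sheddase ADAM17 lower (-0.48 ± 0.13, edgeR adjusted p = 0.0468), with a median of -0.15. Each of these 6 calls was lost in 5 to 9 of 15 alternatives, among them the fits without control 1, control 2, control 3 or SAM 1, with edgeR adjusted p up to between 0.117 and 0.209.

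The list of atypical cadherin relatives, which also includes FJX1, held 3 calls among 11 tested genes, all lower, against 5.24% of all tested genes. The median log2 fold change was -0.46, with 8 below 0 and 3 above, over a range from -0.88 to 1.14. The calls were the 3 CELSR genes, which encode the seven-pass cadherins of planar cell polarity. CELSR3 had 16.2, 17.9 and 17.2 CPM in the controls and 8.37, 11.3 and 8.58 CPM with SAM. The groups were well apart (log2 fold change -0.88 ± 0.14, edgeR adjusted p = 0.00839). CELSR2 and CELSR1 had -0.68 ± 0.11 and -0.63 ± 0.14 (edgeR adjusted p = 0.00918 and 0.0237). The call was lost for CELSR3 without control 2, control 3 or SAM 1, with edgeR adjusted p up to 0.0618. It was lost for CELSR2 without control 1, control 3 or SAM 1, up to 0.0685, and for CELSR1 without any 1 of the controls or SAM 1, up to 0.134. Of the 17 tested genes within 250 kb of the clusters that are not protocadherins, 1 was called, against 10.4% of all tested genes, namely APBB3, an adaptor of the amyloid precursor protein, which had a log2 fold change of -0.48 ± 0.13 (edgeR adjusted p = 0.0451) and was lost in 6 of 15 alternatives. The median of these neighbours was 0.04, with 8 of 17 below 0, against 16 of 19 for the clustered protocadherins between them.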

How the data were processed

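RNA of PC-3 cells was sequenced in 3 control and 3 SAM libraries. The labels describe TruSeq libraries read on a HiSeq2000. The study's text describes another dose, kit, sequencer and reference, and its vehicle is PBS with sulfuric acid and ethanol. The labels were followed. The authors deposited raw counts per Ensembl gene, and their table of normalised values was not used. Builds mm10 and hg19 are listed in the submitters' processing notes, which give no role or order to the tools they name: HTSeq 0.6.1, STAR 2.4, DESeq2 1.8, SAMtools 0.1.19, CASAVA 1.8.2 and FastQC 0.10.0. Of 51488 identifiers shared with GENCODE release 44, 99.9% overlapped that gene on GRCh38, so coordinates are given as GRCh38. Strand use and the handling of shared bases are not stated in the labels or the study's methods.

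Counts were tested in edgeR 4.0.16 (R 4.3.3) by quasi-likelihood with treatment alone, with TMM scaling, two-sided, on the 15312 genes that passed filterByExpr (99.9% of the counts), with Benjamini-Hochberg adjusted p under 0.05. Scripts were tested on simulated data. The biological coefficient of variation was 13.5%. No libraries of a group were alike within sampling noise (chi-square per degree of freedom 5.06 to 62.5). Alternatives were RLE factors, library totals only, no filter, at least 1 CPM in 3 libraries, DESeq2 1.42.0, limma 3.58.1 voom (the test of the study's methods), the replicate number as a block, a trend on GC content and length removed, each library left out, and control 1 and SAM 2 left out together. Figures were drawn with matplotlib 3.10.9.

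The members and lists were chosen with earlier results of these data known. Every tested protocadherin was named, with the value in each library for called members and for the 3 highest per kilobase in each class, untested members with at least 30 counts or a call in an alternative, and up to 4 called genes per list. Some genes of the marker lists are not reported here.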

Additional observations from a re-analysis of the deposited data

How the results depend on the processing

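PCDH1 kept its call in 15 of 15 alternatives, and no protocadherin was called higher in any of them. The number called lower was 3 without a filter, 1 with the replicate block and 1 without both control 1 and SAM 2, and 1 to 2 when single libraries were left out, PCDHB14 being the call that was lost. Same-numbered libraries correlated at -0.23, -0.53 and 0.18 in their deviations from the group means. With 3 libraries per group, these values cannot decide whether the replicate numbers pair the samples. Over all genes, the counts called higher and lower, 795 and 803 as reported, were 608 and 961 with library totals only, 1402 and 1341 without a filter, 1548 and 1263 with the trend on GC content and length removed, and 446 and 508 without both control 1 and SAM 2. With the replicate block 440 were called higher and 588 lower. When single libraries were left out, 61 to 1661 were called higher and 78 to 1572 lower, the lowest without control 3 and the highest without SAM 2. The median of the clustered members ranged from -0.49 to -0.15 when single libraries were left out, the latter without SAM 3. The median of the other members was 0.19 with the trend removed. Members with values near 0 changed sign without a call: PCDHB9 (-0.012) and PCDHGB6 (-0.022) with library totals only, PCDHGB6 (-0.023) with voom, and PCDHGA10 (-0.045) with the replicate block. Without both control 1 and SAM 2, PCDHB9 (-0.30) and PCDHGB6 (-0.068) changed sign too. PCDHB10, at -0.25 as reported and so not near 0, turned to 0.040 in that fit, also without a call. When single libraries were left out, PCDHB9 ranged from -0.17 to 0.28, PCDHGB6 from -0.18 to 0.22, PCDHGA10 from -0.17 to 0.25 and PCDHB2 from -0.24 to 0.15. The cause was not tested. With all exonic bases as the length, 5 of 12 levels per kilobase moved by more than the spread between libraries. Depth limits the low members: a floor of 3 counts is 0.322 CPM in control 1, and 44 of 69 members did not pass the filter.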
